A study of Mus musculus with 6 samples.

Results

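The tumor suppressor p53 (gene *Trp53*), 3 of its inhibitors and 6 of its transcriptional targets were followed in mouse glial cells with and without the histone mutant H3.3K27M. The 10 genes were the members named for the pathway: *Trp53*, the inhibitors *Mdm2*, *Mdm4* and *Ppm1d*, the apoptosis genes *Bax*, *Bbc3* and *Pmaip1*, and the stress and cell cycle genes *Gadd45a*, *Sesn2* and *Ccng1*. They were found on the array through the RefSeq accession of each probe, which named 32994 of 56605 probes for 22911 genes. All 10 had a probe, 16 probes in all, and 9 of the 10 were among the 14898 genes bright enough to test.

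OS3 is a line of glial cells from the brain of newborn male C3H mice (C3H/HeN in the study's methods), immortalized with SV40. WT cells were OS3 cells carrying an empty vector, and IG27 cells were OS3 cells transfected with a plasmid for H3.3 in which lysine 27 is replaced by methionine. Clones were established by drug selection, and the sources used here do not say how many clones stand behind the dishes of each group, so a difference between clones and an effect of the mutant cannot be told apart. RNA was taken from 3 dishes of each after 2 days in culture, and the 6 samples were hybridized to the arrays of 1 slide. The dishes are cultures of a cell line, so a p-value measures the spread between dishes. In RNA pooled from a dish, a change in the mixture of cells and a change of RNA per cell cannot be told apart.

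p53 is a transcription factor that is held at a low level by MDM2, which attaches ubiquitin to it, and by MDM4, which covers its activation domain. DNA damage and other stresses release it, and it then switches on genes for cell cycle arrest, repair and apoptosis, together with *Mdm2* itself, which closes a feedback loop. In cells immortalized with SV40 the large T antigen binds p53 protein, which is then stable but impaired as an activator. The protein was not measured by the arrays. All results below are levels of mRNA.

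A signature that p53 itself reads is the half-site, a stretch of 10 bases of which a pair makes a full binding site. In the RefSeq promoter windows of GRCm38.p6, from 250 bases before to 50 bases after each start, 9 of the 10 genes were present with 12 windows. The half-site, by its usual consensus with no mismatch and the same on either strand, lay in the windows of 6 genes, and in 6 of 12 windows (50%) against 2745 of 32851 windows (8.36%) over the whole table. The matches are shown, since they mark which of the genes hold these letters near the start. Each stretch has 50 bases, 5′ to 3′ on the strand of the gene, with the half-site in capitals.

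Trp53, chr11:69580264-69580313, + strand: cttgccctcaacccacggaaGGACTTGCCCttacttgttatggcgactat
Mdm2, chr10:117710915-117710964, - strand: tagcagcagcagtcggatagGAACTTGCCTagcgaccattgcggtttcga
Ppm1d, chr11:85311102-85311151, + strand: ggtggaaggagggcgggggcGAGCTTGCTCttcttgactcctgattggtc
Bax, chr7:45467070-45467119, - strand: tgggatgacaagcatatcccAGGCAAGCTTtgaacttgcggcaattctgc
Gadd45a, chr6:67037418-67037467, - strand: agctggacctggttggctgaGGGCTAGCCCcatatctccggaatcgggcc
Ccng1, chr11:40755442-40755491, - strand: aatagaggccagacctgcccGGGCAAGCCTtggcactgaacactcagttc

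The match ended 31 bases before the start in *Gadd45a*, 66 in *Trp53*, 123 in *Ppm1d*, 176 in *Ccng1*, 177 in *Mdm2* and 192 in *Bax*. No match lay in the windows of *Mdm4*, *Bbc3* and *Sesn2*. A match is a run of letters and no measured binding, and known p53 sites of several of these genes lie in introns outside the windows. Of the 6 genes with a match, *Trp53* rose and *Ccng1* fell, as given below. *Mdm2* fell on its brighter probe and rose on its dimmer probe. *Ppm1d*, *Bax* and *Gadd45a* were not called.

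Levels are given as log2 of the array intensity relative to the 75th percentile of the same array, so that 0 is a bright gene and a difference of 1 is a doubling. Of the 9 tested genes, 3 rose and 3 fell in IG27 cells with an adjusted p below 0.05 (limma, Benjamini-Hochberg over all 14898 genes), and 3 were not called. The IG27 and WT cells differed widely: the same test called 70.5% of all genes, 30.5% higher and 40% lower. The 6 of 9 called here (66.7%) lie near that background, so the number of called genes is no result about the p53 pathway, and the genes are described one by one. Their median log2 fold change was 0.16, against -0.07 over all tested genes. WT and IG27 arrays were fully separated in 8 of the 9 genes and in 75.7% of all genes.

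**Figure D1:**
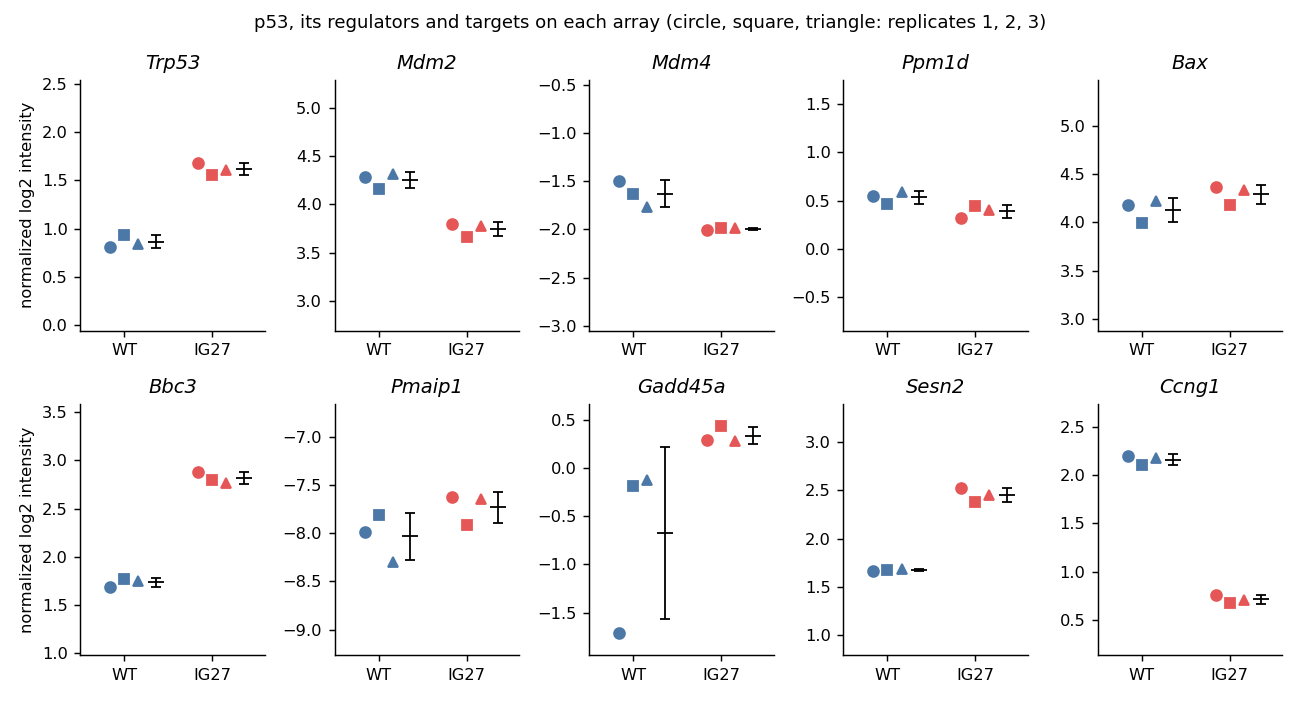
Normalized log2 intensity (vertical axis, each panel spanning the same range of 2.6 log2 units) of each gene on the 3 WT and 3 IG27 arrays. Points come from the brightest tested probe, and for *Pmaip1* from its only probe, which was too dim to test. The mean and SD stand beside the points. *Trp53*, *Bbc3* and *Sesn2* sit higher on every IG27 array, *Mdm2*, *Mdm4* and *Ccng1* lower, and 1 WT array stands far below the others for *Gadd45a*.

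*Trp53* mRNA was higher in IG27 cells. Its probe read 0.81, 0.94 and 0.84 on the WT arrays and 1.68, 1.55 and 1.61 on the IG27 arrays. Every IG27 array lay above every WT array, with a gap far wider than the spread within either group. The log2 fold change was 0.75 (standard error, SE, 0.06, limma adjusted p = 6.19e-05), a 1.69-fold rise, and it ran from 0.51 to 0.84 over the 19 alternative ways of processing the arrays. Of all tested genes, 67.2% changed by less than *Trp53*.

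The genes around *Trp53* moved in both directions. Of the nearest 5 tested genes on each side on chromosome 11, 3 rose and 1 fell. Of all genes, 30.5% were higher and 40% lower. The median log2 fold change of these neighbors was -0.17. *Wrap53*, which lies head to head with *Trp53* and shares its start region, had a log2 fold change of -0.18 (limma adjusted p = 0.105). The 3 that rose were *Tmem88* (1.86), *Dnah2* (1.21) and *Kdm6b* (1.14), which encodes a demethylase of lysine 27 of histone H3. The 1 that fell was *Sat2* (-0.44). A regional cause was not tested. After each gene was centered on its mean, the genes nearest to *Trp53* over the 6 arrays were *Gm15558*, *Rbfox2* and *Nr1h2*. Their root mean square distances were 0.03, 0.03 and 0.04 log2 units, and their log2 fold changes 0.75, 0.74 and 0.72. With 2 groups of little spread, such a distance mainly picks genes with a similar fold change, so it shows no shared regulation. None of these 3 is on chromosome 11.

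The main inhibitor of p53, *Mdm2*, gave opposite answers from its 2 probes. The brighter probe read 4.28, 4.16 and 4.32 in WT cells and 3.80, 3.67 and 3.78 in IG27 cells. All IG27 arrays were lower, with a log2 fold change of -0.51 (SE 0.07, limma adjusted p = 0.00066). The dimmer probe read -1.13, -1.23 and -1.30 in WT cells and -0.96, -0.78 and -0.77 in IG27 cells. On that probe all IG27 arrays were higher, with a log2 fold change of 0.39 (limma adjusted p = 0.0062, over all tested probes). Both probes carry the same accession, and the files do not say which exons they read. With the 2 probes averaged, the log2 fold change was -0.06 (limma adjusted p = 0.34), and the call was lost.

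Such a conflict was rare. Of 5486 genes with several tested probes, 164 (2.99%) had a probe called higher and a probe called lower. Of 10 neighbors of *Mdm2* on chromosome 10, 8 fell and 1 rose, beside 40% lower and 30.5% higher of all genes. Their median log2 fold change was -0.38, against 0.08 for the 682 tested genes of the chromosome. Values of neighbors cannot tell which *Mdm2* probe is right. *Mdm1*, a centriole gene close to *Mdm2*, had a log2 fold change of -0.50. The neighbors given by name were picked after their values were seen.

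*Mdm4*, which encodes the partner of MDM2 that masks the activation domain of p53, was lower in IG27 cells on all 4 of its probes. The brightest read -1.49, -1.63 and -1.77 in WT cells and -2.0, -1.99 and -1.99 in IG27 cells, without overlap. Its log2 fold change was -0.36 (SE 0.08, limma adjusted p = 0.00597). The other probes gave -0.40, -0.36 and -0.43, and each of the 4 probes was called. It is a small change that passed the test in each of the 19 alternatives.

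*Ppm1d*, the phosphatase WIP1 that removes activating phosphates from p53 and from the kinases above it, was not called. Its brighter probe read 0.55, 0.46 and 0.59 in WT cells and 0.31, 0.45 and 0.40 in IG27 cells. IG27 replicate 2 lay just below WT replicate 2, the groups did not overlap, and the log2 fold change was -0.15 (95% interval -0.29 to 0.0032, limma adjusted p = 0.0732). The dimmer probe had a log2 fold change of -0.24 (limma adjusted p = 0.0252, over all tested probes). With the probes averaged *Ppm1d* was called, at -0.19, and also with arrays scaled to their median, at -0.38.

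**Figure D2:**
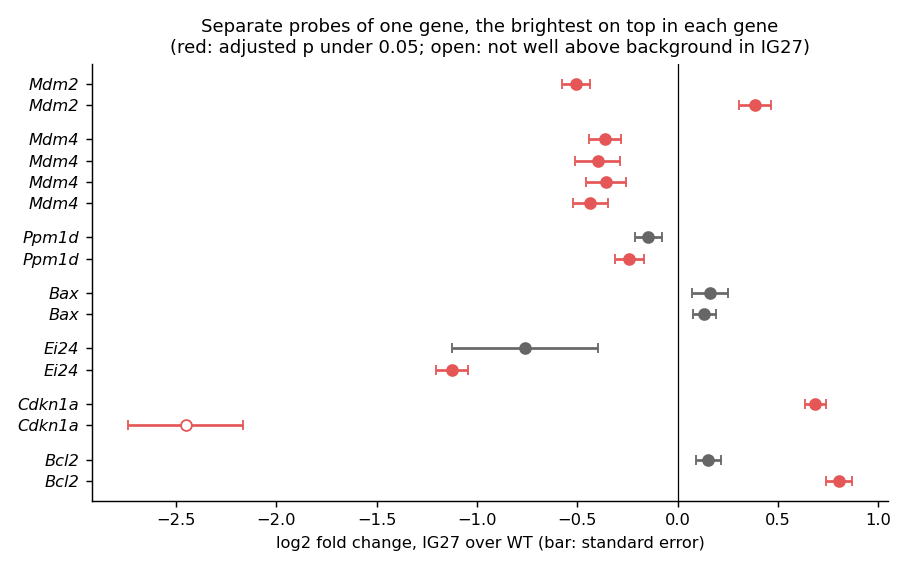
Log2 fold change of IG27 over WT cells (horizontal axis, bars are standard errors) for every tested probe of *Mdm2*, *Mdm4*, *Ppm1d*, *Bax*, *Ei24*, *Cdkn1a* and *Bcl2*. The 4 probes of *Mdm4* lie together, while those of *Mdm2* and *Cdkn1a* lie on opposite sides of 0.

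Among the apoptosis genes, *Bbc3* rose and *Bax* did not pass the test. *Bbc3* encodes PUMA, a protein of the BH3-only class that frees BAX and BAK to open the mitochondrial membrane. It read 1.68, 1.77 and 1.75 in WT cells and 2.88, 2.80 and 2.76 in IG27 cells. The IG27 arrays lay about 1 log2 unit above the WT arrays, and the log2 fold change of 1.08 (SE 0.05, limma adjusted p = 8.72e-06) is a 2.11-fold rise. It stayed between 0.84 and 1.20 over the alternatives.

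*Bax*, the pore-forming protein on which PUMA acts, read 4.18, 3.99 and 4.23 in WT cells and 4.37, 4.18 and 4.33 in IG27 cells. The groups overlapped, as WT replicates 1 and 3 read above IG27 replicate 2. The log2 fold change was 0.16 (95% interval -0.05 to 0.37, limma adjusted p = 0.141), and the other *Bax* probe gave 0.13. This gene lay within reach of the scaling: it was called higher after quantile normalization, at 0.29, and with normexp background correction as well, at 0.47 (limma adjusted p = 0.000473), and turned to -0.08 when arrays were scaled to their median. With the slide row as a block it was called at 0.30, a fit that sets the IG27 arrays against WT replicate 2 alone.

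*Pmaip1*, which encodes the BH3-only protein NOXA, was not well above background on any complete array. Its only probe read -7.99, -7.82 and -8.30 in WT cells and -7.63, -7.91 and -7.65 in IG27 cells. These lie below the lowest signal called well above background, which was -6.01 to -5.33 across arrays, so no fold is given.

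*Gadd45a*, a stress gene whose product binds PCNA and slows the cell cycle, depended on 1 array. Its only probe read -1.71, -0.19 and -0.12 in WT cells and 0.29, 0.43 and 0.28 in IG27 cells. All IG27 arrays were higher, but WT replicate 1 read 1.55 log2 units below the mean of the other WT arrays. The log2 fold change of 1.01 (SE 0.43, limma adjusted p = 0.0753) did not pass. Without WT replicate 1 it was 0.49 and passed (limma adjusted p = 0.00216). Leaving out WT replicate 3 moved it to 1.28 (limma adjusted p = 0.0485).

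The *Gadd45a* spot lies in a low patch of the array of WT replicate 1. In a rectangle of spot rows 49 to 168 and spot columns 1 to 41, 437 of 1565 bright spots (27.9%) read over 0.5 log2 units below the other WT arrays, against 80 of 18565 (0.431%) elsewhere on that array. On the other 5 arrays the share in the same rectangle was 0 to 2.16%. With the rectangle of this array left out, a step chosen after seeing the data, *Gadd45a* had a log2 fold change of 0.49 (limma adjusted p = 0.0018). The *Mdm4* spot at the border of the rectangle read 0.21 above the other WT arrays, and without it *Mdm4* kept its call at -0.40 from its next probe.

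**Figure D3:**
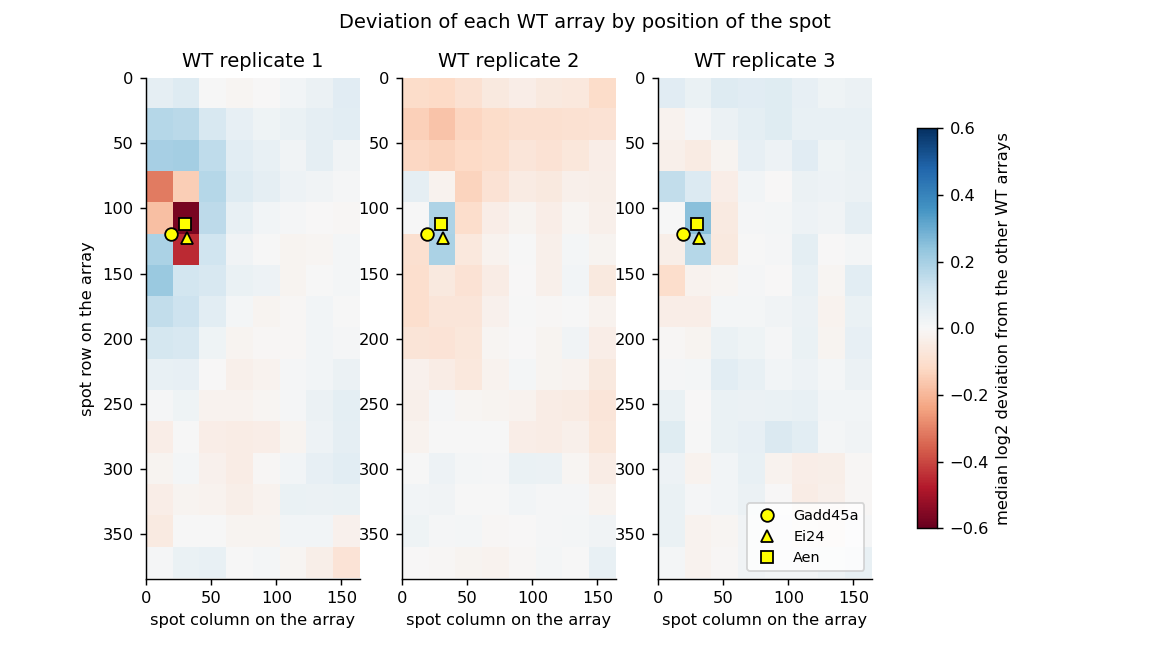
Median deviation (color, log2 units) of the spots of each WT array from the mean of the other WT arrays, by spot column (horizontal) and spot row (vertical), with the spots of *Gadd45a*, *Ei24* and *Aen* marked. A red area, with medians down to -0.57, lies on WT replicate 1 where these 3 spots are, and its blue counterpart on replicates 2 and 3 arises because they are compared with replicate 1.

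*Sesn2* and *Ccng1*, both textbook p53 targets, moved in opposite directions. *Sesn2* encodes a sestrin, a sensor of leucine and oxidative stress that restrains mTORC1. It read 1.67, 1.68 and 1.69 in WT cells and 2.52, 2.38 and 2.45 in IG27 cells, with no overlap. The log2 fold change was 0.78 (SE 0.05, limma adjusted p = 3.17e-05), a 1.71-fold rise that ran from 0.54 to 0.90 over the alternatives.

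*Ccng1* encodes cyclin G1, which recruits a phosphatase to MDM2 and so acts back on p53. It read 2.20, 2.10 and 2.18 in WT cells and 0.76, 0.67 and 0.71 in IG27 cells. The log2 fold change of -1.45 (SE 0.05, limma adjusted p = 2.16e-06) is a 2.73-fold fall, larger in size than the change of 85.5% of all tested genes. It was the largest change among the 9 tested members. Its neighbors on chromosome 11 had a median of -0.37, with 6 of 10 lower and 2 higher, beside 40% lower and 30.5% higher of all genes.

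**Figure D4:**
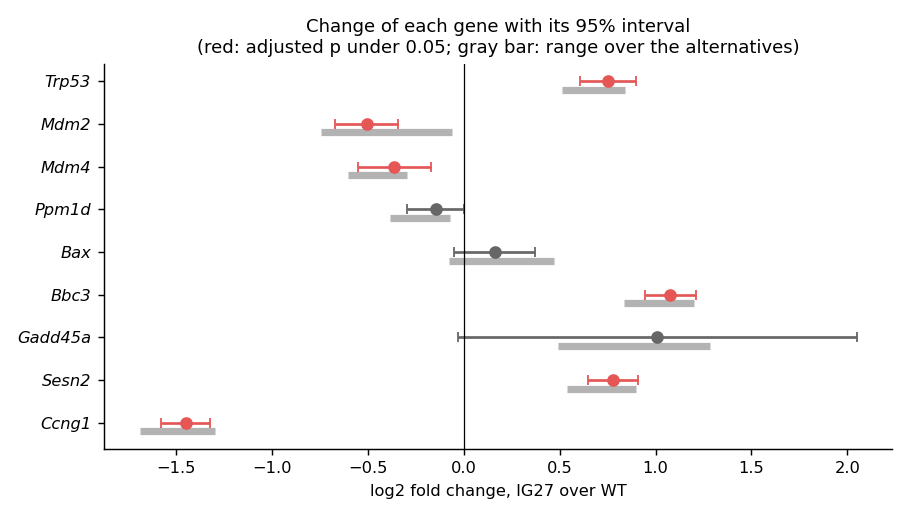
Log2 fold change of IG27 over WT cells (horizontal axis) for the 9 tested genes, with 95% intervals (thin bars) and the range over 19 alternatives (thick gray bars). Of the gray bars, that of *Bax* alone crosses 0, and the interval of *Gadd45a* is the widest.

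Of 7 paralogs of these genes, 2 rose, 3 fell and 2 were not called, with a median log2 fold change of -0.08. The share called, 71.4%, is close to the 70.5% of all genes and says nothing about the families. In the sestrin family *Sesn1* rose with *Sesn2* (0.52) while *Sesn3* fell (-0.42). *Ccng2* rose (0.41) where *Ccng1* fell. *Gadd45b* fell (-0.90), and *Gadd45g* had a log2 fold change of -0.08 (limma adjusted p = 0.415), from a fit in which IG27 replicate 1 was dropped for an outlier mark on its spot. Of the p53 relatives, *Trp63* fell (-0.60), and its second probe, not well above background in IG27 cells, was at least 5.24-fold lower. *Trp73* was at -0.08 on its brightest probe, and another probe was at least 2.16-fold lower in IG27 cells. With the probes averaged it was called, at -1.46.

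Among 21 regulators of p53, 4 rose, 9 fell and 8 were not called, with a median of -0.01 and 61.9% called against 70.5% of all genes. The balance moved with the scaling: 8 rose and 6 fell after quantile normalization, with or without normexp background correction, and 2 rose and 12 fell with arrays scaled to their median. The rises were those of *Sirt1* (1.01), a deacetylase of p53, *Smyd2* (0.50), which methylates it, the ribosomal protein gene *Rpl5* (0.32), whose product binds MDM2, and *Usp7* (0.28), a deubiquitinase of p53 and MDM2. The 5 largest falls were those of *Kmt5a* (-1.10), another methyltransferase of p53, *Usp10* (-1.02), a deubiquitinase of p53, the checkpoint kinase gene *Chek1* (-0.84), *Trp53bp1* (-0.67), a DNA damage adaptor, and the kinase gene *Hipk2* (-0.35). Activators and inhibitors stood on both sides. For *Hipk2* a second probe rose, with a log2 fold change of 0.18, and the call was lost with probes averaged. *Cdkn2a*, whose ARF product blocks MDM2, had a log2 fold change of -0.05 and was not called.

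Of 34 further p53 targets, 32 were tested: 10 rose, 15 fell and 7 were not called, with a median log2 fold change of -0.35. The 5 largest rises were those of the stress cytokine gene *Gdf15* (7.25), *Cd82* (3.55), a tetraspanin, *Btg2* (2.63), which slows proliferation, the kinase gene *Plk3* (2.41) and the autophagy gene *Dram1* (2.09). *Gdf15* averaged -4.71 ± 0.26 over the WT arrays and 2.53 ± 0.05 over the IG27 arrays (SD, n = 3 each). Among the falls were those of the death receptor gene *Fas* (-1.74), *Psrc1* (-1.61), a spindle gene, and *Steap3* (-1.24), a metalloreductase. *Eda2r*, a receptor gene, and *Rprm*, a gene of cell cycle arrest, fell to levels in IG27 cells that were not well above background, *Eda2r* by at least 3.87-fold and *Rprm* by at least 1.09-fold. That bound gives *Rprm* no place among the largest falls, although its fitted change does. *Perp* and *Spata18* were too dim to test. These counts, 78.1% called, again stand beside the 70.5% of all genes.

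A few targets were singled out after their values were seen. *Cdkn1a*, which encodes p21, the classic mediator of p53 arrest, had probes that disagreed. Its brighter probe averaged 1.75 ± 0.05 over the WT arrays and 2.44 ± 0.01 over the IG27 arrays (SD, n = 3 each), a rise of 0.69 on the log2 scale. Its dimmer probe, which carries another accession, was at least 2.18-fold lower and not well above background in IG27 cells. *Zmat3*, a zinc finger gene that responds directly to p53, fell with a log2 fold change of -1.13. *Ei24* lies in the low patch of WT replicate 1: its log2 fold change was -0.76 and not called with all spots, and -1.20 without the patch (limma adjusted p = 2.71e-05), while a second probe outside the patch gave -1.13. *Aen* lies there too, and went from 0.23 to -0.01, not called either way.

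Of 12 further genes of the BCL2 family, to which PUMA, NOXA and BAX belong, 11 were tested. Of these, 4 rose, 5 fell and 2 were not called (81.8% called, against 70.5% of all genes). The counts were 6 higher and 4 lower after quantile normalization, 5 and 4 with normexp as well, and 3 and 5 with median scaling. Of the proteins that protect from apoptosis, *Mcl1* rose (0.38), *Bcl2l1* fell (-0.54) and *Bcl2l2* fell (-1.17). *Bcl2* was not called on its brightest probe, at 0.15, but a second probe rose, at 0.80. *Bcl2* gained a call in 6 of the 19 alternatives, among them quantile normalization (0.18) and leaving out IG27 replicate 3 (0.20). Of the pore formers, *Bok* rose (2.99) and *Bak1* had a log2 fold change of 0.11 and was not called. Of the BH3-only class to which PUMA belongs, *Hrk* (2.29) and *Bid* (1.36) rose, and *Bmf* (-1.65), *Bcl2l11* (-1.42) and *Bad* (-0.24) fell. A second, dimmer *Bmf* probe was at -0.20 and not called, and *Bmf* ran from -1.89 to -0.92 over the alternatives. The call of *Bad* was lost in 8 of the 19 alternatives, among them normexp background correction (0.011) and those without WT replicate 1 (-0.17), IG27 replicate 2 (-0.22) or IG27 replicate 3 (-0.23). *Bik* was too dim to test.

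**Figure D5:**
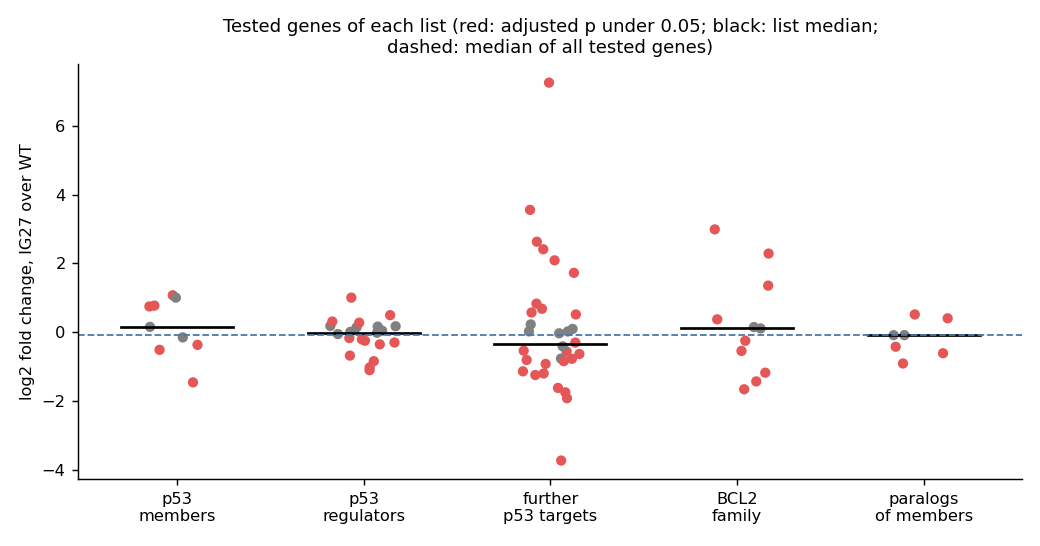
Log2 fold change of IG27 over WT cells (vertical axis) for the tested genes of the 5 lists, each point a gene, colored where the adjusted p was under 0.05, with list medians in black and the median of all tested genes dashed. Called genes lie on both sides of 0 in every list, and *Gdf15*, at 7.25, is the highest point.

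The 5 complete arrays had similar shares of probes well above background, 58.8% to 61.2%. The values of IG27 replicate 2 carry no such marks. On WT replicate 1, some areas in and beside the low patch read high. Their medians reached 0.22 log2 units above the other WT arrays. The introduced gene was read by 3 *H3f3a* probes, none of which rose: their log2 fold changes were 0.17, -0.26 and -0.20, and the second was called lower, a call that was lost in 10 of the 19 alternatives, those without WT replicate 1, WT replicate 3, IG27 replicate 2 or IG27 replicate 3 among them. The files do not say whether these probes lie in the coding part that the plasmid holds, so they do not check the transfection. Most astrocyte and oligodendrocyte lineage markers, *Sox10*, *Olig1* and *Gfap* among them, were well above background on every complete array. *Slc1a3* and *Cspg4* fell short of this in WT cells and *Aqp4* in IG27 cells. *Cspg4* (0.61) and *Aqp4* (0.12) were not called. Among 5 astrocyte markers 2 rose and 2 fell: *Gfap* fell by 1.07 and *Aldh1l1* by 1.72, *S100b* rose by 4.93, and *Slc1a3* was at least 20.6-fold higher and not well above background in WT cells. Their summed level, which follows *Gfap*, was 6.58 to 6.72 in WT and 5.78 to 5.98 in IG27 cells. For the 5 oligodendrocyte lineage markers it was 5.87 to 5.95 and 5.85 to 5.89, and it follows *Sox10*, the brightest. Of these 5, *Olig1* (1.48), *Olig2* (1.51) and *Pdgfra* (2.36) rose and *Sox10* (-0.37) fell. Of the markers of other cells, *Ptprc* and *Cx3cr1* (microglia), *Rbfox3* and *Syt1* (neurons), *Cdh5* (endothelium) and *Col1a2* and *Lum* (fibroblasts) were too dim to test. Of the rest, the fibroblast sum was 6.83 to 6.86 in WT and 5.88 to 6.0 in IG27 cells, the microglia sum 0.94 to 1.11 and -0.72 to -0.12, the neuron sum 2.18 to 2.56 and 2.18 to 2.37, and the endothelium sum -2.63 to -2.49 and 1.37 to 1.41. Each of these sums but that of the neurons, where *Snap25* alone was tested, holds genes that moved in opposite directions. *Col1a1* fell (-0.92) and *Dcn* was at least 3.32-fold higher, *Csf1r* fell (-1.57) and *Aif1* was at least 2.74-fold higher, and *Pecam1* fell (-0.27) while *Kdr*, which carries the endothelium sum, was at least 134.8-fold higher. The part of these markers in the changes of the p53 genes was not tested.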

How the data were processed

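Total RNA of 3 WT and 3 IG27 cultures was labeled with Cy3 and hybridized to 1-color Agilent mouse arrays. The authors deposited Feature Extraction output, whose spot intensity had been background-subtracted by the scanner software (version 10.7.3.1 in the file headers and 9.1 in the submitters' processing notes), and a table of the same intensity values. The scanner file for IG27 replicate 2 is cut short at 285 spots, so its values came from the table, where they are not marked for outliers or background. The table's columns for WT replicates 2 and 3 are exchanged relative to the scanner files, and the scanner files were followed.

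From these, log2 intensity minus the 75th percentile of each array was computed, outlier spots were dropped, and a probe was kept if all complete arrays of 1 or both groups read it well above background. Each gene took its brightest kept probe. The groups were compared with limma 3.58.1 (R 4.3.3), two-sided, with Benjamini-Hochberg adjustment over all 14898 genes and a threshold of 0.05. The fit was tested on simulated data with independent noise and far fewer changed genes. That test does not vouch for the calls made here.

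Where a probe was not well above background in 1 group, the fold is a bound: the mean of the bright group against, per array, the higher of the lowest signal well above background and the probe's own value. Arrays have no read depth, and 3 arrays per group limit the precision. The members and the gene lists (p53 regulators, further p53 targets, BCL2 family, paralogs, cell type markers) were chosen with earlier results of these data known. All members, all tested BCL2 and paralog genes, the 5 largest called rises and falls of the other lists, and the 3 genes nearest to *Trp53* are named. Probe accessions were named, and neighbors found, through RefSeq (GRCm38.p6). Alternatives changed the scaling, background correction, filter, outliers, probe rule, trend, p adjustment, slide row, replicate block and each array in turn, and, added after seeing the data, left out the low patch of WT replicate 1. The lists were counted with no set test.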

Additional observations from a re-analysis of the deposited data

How the results depend on the processing

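*Trp53*, *Mdm4*, *Bbc3*, *Sesn2* and *Ccng1* kept their direction and their call in all 19 alternatives. *Mdm2* kept its call in 18, which all read its brighter probe, and lost it with the mean of its probes. Those 18 therefore do not weigh its brighter probe against the dimmer one, which was called higher. *Trp53*, *Bbc3*, *Sesn2* and *Ccng1* have only 1 probe each, so no alternative could set them against another probe. *Gadd45a* was called in 4 alternatives, *Bax* in 3 and *Ppm1d* in 2. The number of genes called was 8946 to 10982 in all alternatives, and 9799 to 10143 with each array left out in turn. With an array left out, 6 to 7 members, 11 to 13 regulators, 25 to 26 further targets, 8 to 9 BCL2 genes and 5 paralogs were called. Scaling arrays to their median lowered the median of all genes by 0.24 and turned the calls from 4546 higher and 5955 lower to 3026 and 7956. It also ended the calls of *Usp7* (0.04), *Rpl5* (0.08), *Mcl1* (0.14) and *Ccng2* (0.17). Testing without the filter raised that median by 0.18.

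The direction turned in the following cases, none called unless stated. With median scaling *Bax* was at -0.079, *Bcl2* at -0.086, *Bak1* at -0.12 and *Aen* at -0.0079. With normexp background correction *Bad* was at 0.011. *Gadd45g* was at 0.021 after quantile normalization and at 0.010 on complete scanner output only, and ran from -0.17 to 0.010 with an array left out. *Trp73* ran from -0.19 to 0.11 and *Aen* from -0.014 to 0.37 in the same way, and *Aen* was at -0.014 without the patch. *Cdkn1a*, called, was at -0.88 with its probes averaged. The cause was not tested.

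Same-numbered arrays correlated in their deviations from the group means at 0.01, 0.04 and 0.08. With 3 arrays per group, this cannot tell whether the replicate numbers pair the samples. With the replicate number as a block, 10309 genes were called, and no member gained or lost its call. The slide row could be separated only through WT replicate 2, which alone among WT arrays shares a row with IG27 arrays, and with it as a block 8946 genes and 7 members were called, *Trp53* at 0.68 and *Gadd45a* at 0.52 (limma adjusted p = 0.483). Without the patch of WT replicate 1, 10681 genes were called. Dim probes limit what can be said of *Pmaip1* and of the genes given as a bound.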
